A study of Mus musculus with 28 samples.

Results

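The genes described here encode the T cell receptor complex and the molecules that carry its signal over the first steps inside the cell. They were chosen by name, as a list of 9 genes: Cd3d, Cd3e, Cd3g, Cd247, Cd4, Cd28, Lck, Zap70 and Lat. Of these, 8 were measured, each by a probe set that carries a single gene symbol, out of 19938 genes measured in all, and Lck was not analysed here. Expression was measured on 28 Affymetrix mouse arrays in CD4+ T cells whose receptor recognises TRP1, a melanocyte protein. All cells came from the BwTRP1 Rag1-/- strain, so every group lacked Rag1, and the promoter that drives the receptor transgene is not given in the sources used here. Cells were polarised in culture for 7 days on irradiated splenocytes loaded with TRP1 peptide. Th17 cultures received IL-1, IL-6, IL-21 and TGFβ2, later IL-23, with antibodies to IL-2, IL-4 and IFN-γ, Th1 cultures received IL-12 with an antibody to IL-4, and both were later given medium with IL-2. Cells were taken from culture at day 0, or at day 5 and day 15 after transfer of these Thy1.2+ cells into sublethally irradiated Thy1.1+ B6.PL mice. They were then recovered from pooled spleens and inguinal lymph nodes by CD4 enrichment and a sort on Thy1.2, which tells them from host cells. Each sample was divided, and one part received antibodies against CD3 and CD28 over 2 h of restimulation while the other stayed unstimulated. The age of the mice is not given in the sources used here.

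The restimulated and the unstimulated condition each held 1 Th17 and 1 Th1 array at day 0, 3 Th17 and 3 Th1 arrays at day 5, and 4 Th17 and 2 Th1 arrays at day 15. Nothing in the labels ties replicates to different mice or cultures, so each p-value here reflects only how far these samples spread, and precision is limited by the number of arrays. Values are log2 units of the deposited normalised signal. A gene is called changed at an adjusted p under 0.05 by limma, with Benjamini-Hochberg adjustment over all 19938 genes. Levels are compared between samples for each gene and not between genes, because probe sets differ in how brightly they respond.

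The chains of the T cell receptor that bind peptide have almost no signalling tail of their own. Signalling runs through the CD3 chains (delta, epsilon and gamma, from Cd3d, Cd3e and Cd3g) and through the zeta chain from Cd247, whose tails are phosphorylated by the kinase Lck, brought near by the co-receptor CD4. The kinase ZAP-70 then docks on these tails and phosphorylates the adaptor LAT, which gathers further enzymes, while CD28 adds a costimulatory signal.

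The CD3 genes lie together on chromosome 9, and the transcription starts of Cd3g and Cd3d, which run in opposite directions, lie 1355 bases apart. Upstream windows are shown for Cd3d and Cd3e because they were lower after restimulation in an average over types and days. That average was added after the values were seen, and both calls were lost in some fits. Cd3g is shown as their neighbour, and Zap70 because it was higher after restimulation. Each is the 250 bases before a RefSeq transcription start in GRCm38.p6, printed 5′ to 3′ on the gene's own strand. Capitals mark matches, searched on both strands, to an E-box (CANNTG), a GATA motif (AGATAA), a Runx motif (TGTGGT), a cyclic AMP response element (TGACGTCA) or an AP-1 motif (TGANTCA). None of the printed matches overlaps another. Of 32851 upstream windows of this length in the RefSeq table, 66.2% held an E-box, 10.0% the GATA motif, 14.0% the Runx motif, 1.5% the cyclic AMP response element and 6.7% the AP-1 motif.
Cd3d, chr9:44981536-44981785, plus strand: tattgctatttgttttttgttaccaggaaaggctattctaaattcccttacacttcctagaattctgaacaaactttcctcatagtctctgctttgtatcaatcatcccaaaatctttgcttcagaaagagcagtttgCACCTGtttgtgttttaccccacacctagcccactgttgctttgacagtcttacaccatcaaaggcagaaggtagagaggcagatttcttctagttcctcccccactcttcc
Cd3g, chr9:44980432-44980681, minus strand: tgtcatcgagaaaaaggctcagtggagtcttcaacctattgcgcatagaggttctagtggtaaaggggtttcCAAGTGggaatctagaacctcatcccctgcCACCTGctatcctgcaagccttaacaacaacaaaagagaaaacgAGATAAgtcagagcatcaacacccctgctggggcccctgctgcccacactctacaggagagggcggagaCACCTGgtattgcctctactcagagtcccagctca
Cd3e, chr9:45009612-45009861, minus strand: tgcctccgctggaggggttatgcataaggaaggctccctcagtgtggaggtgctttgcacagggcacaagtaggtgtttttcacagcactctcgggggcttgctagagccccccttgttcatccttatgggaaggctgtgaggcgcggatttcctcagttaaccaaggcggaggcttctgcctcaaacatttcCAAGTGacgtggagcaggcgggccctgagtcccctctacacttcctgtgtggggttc
Zap70, chr1:36761548-36761797, plus strand: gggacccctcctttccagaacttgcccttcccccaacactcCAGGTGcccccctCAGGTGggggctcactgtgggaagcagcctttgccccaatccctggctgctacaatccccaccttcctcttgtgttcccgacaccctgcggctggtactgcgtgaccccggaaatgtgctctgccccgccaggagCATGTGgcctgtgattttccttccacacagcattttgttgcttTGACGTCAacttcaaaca
All 4 windows held an E-box, 1 each for Cd3d and Cd3e and 3 each for Cd3g and Zap70. Cd3g also held 1 GATA match, and Zap70, for which 1 of 3 listed starts is shown, held 1 cyclic AMP response element. The windows of the other two Zap70 starts held 1 E-box each and no such element, and 1 of them held a Runx match. None of the 4 held the Runx or AP-1 letters. A match describes the letters in the window and says nothing of binding. Of the 9 genes 7 had a window in the table, all but Cd4 and Cd28.

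The samples carried T cell transcripts throughout. The mean of Cd3d, Cd3e, Cd3g and Cd247 lay between 11.64 and 12.01 on the 24 arrays taken after transfer, and that of 4 other T cell genes (Thy1, Cd2, Cd5 and Cd6) between 12.18 and 12.38. The median probe set of an array read 6.77 to 7.09. Cd8a, which defines CD8 T cells, read 6.29 to 7.07 after transfer, and Cd8b1, which encodes its partner chain, read 7.77 to 8.69. Cd79a, a chain of the B cell receptor, read 5.15 to 6.60, and Ncr1, a natural killer cell receptor gene, 5.38 to 7.24. Cd79a and Cd8a thus lay near or below the median probe set, while Cd8b1 lay above it. Probe sets differ in how brightly they respond, so these levels do not measure the share of such cells. Of 10 listed genes of T cell receptor chains 1 was measured, and it read 6.73 to 7.24 after transfer, near the median probe set. No constant gene of the receptor's peptide-binding chains was matched, so the level of these chains was not judged here.

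Markers of other cells did differ between samples. The neutrophil gene S100a8 read 6.90 to 9.33 in restimulated and 7.92 to 10.54 in unstimulated Th17 samples of day 5, against 5.62 to 6.18 in the Th1 samples of day 5. Lyz2, a macrophage and granulocyte gene, read 6.57 to 8.18 in restimulated and 8.56 to 9.60 in unstimulated Th17 samples of day 5, against 5.95 to 6.42 in restimulated and 6.62 to 8.06 in unstimulated Th1 samples. The mean of 14 myeloid markers was highest in Th17 replicate 1 of day 5, at 8.18 in the restimulated and 8.89 in the unstimulated part, and lay between 6.51 and 8.09 on the other arrays taken after transfer. The mean of 5 erythroid markers was 8.06 to 9.79 at day 15, against 6.31 to 6.73 at day 5. The mean of 5 natural killer cell markers was 5.43 to 5.76 in Th17 samples of day 15, against 6.23 to 7.18 in Th1 samples. In such bulk samples, fewer cells of a type and less RNA per cell cannot be told apart.

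**Figure D1:**
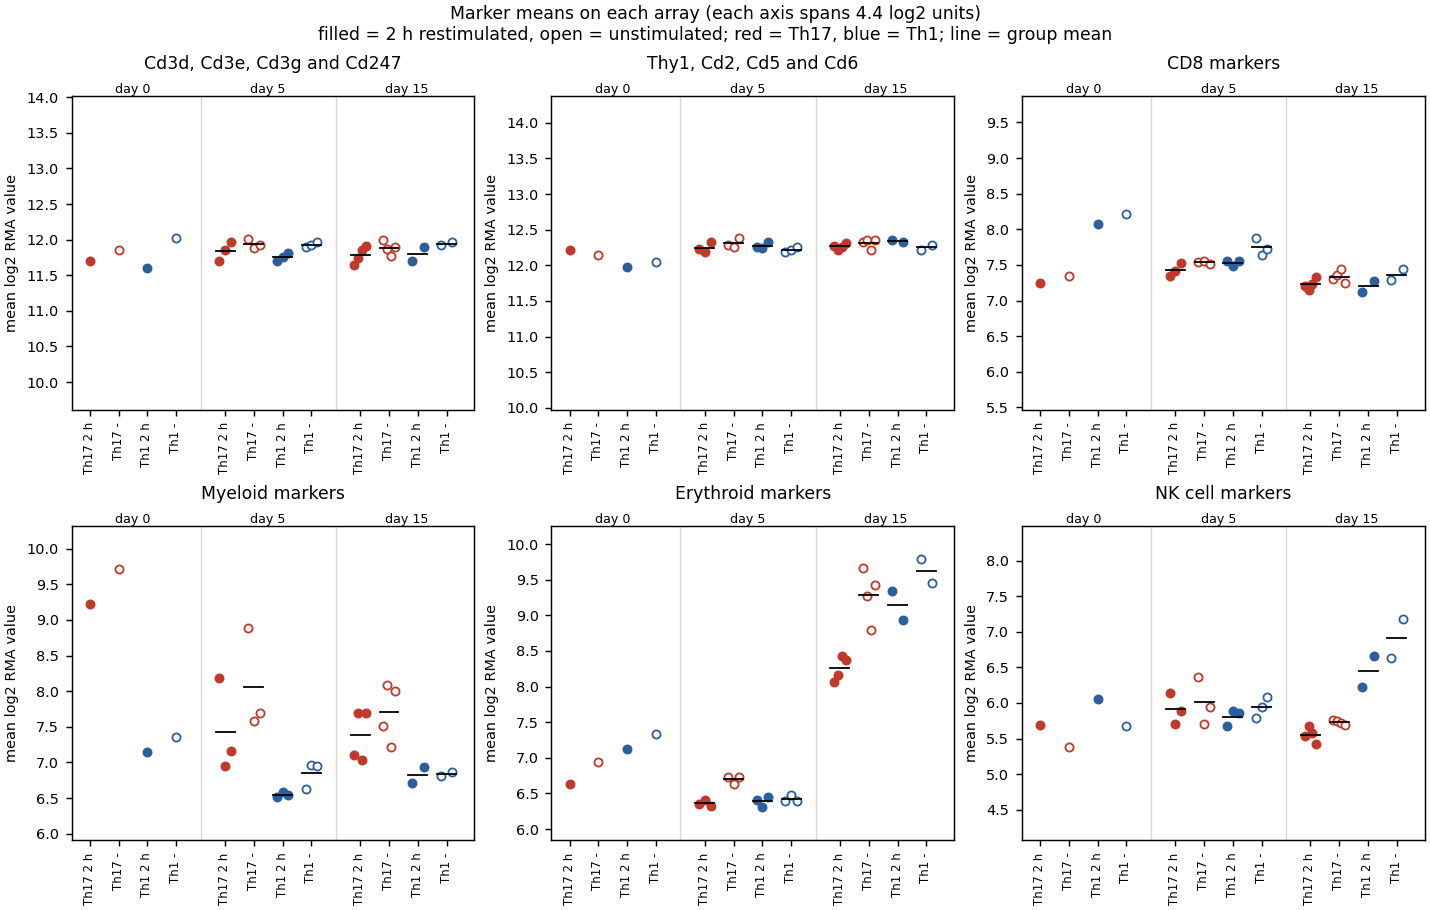
Mean log2 RMA value of 6 marker lists (y axis) on each of the 28 arrays, by group (x axis); filled points are restimulated and open points unstimulated arrays, red is Th17 and blue Th1, and lines are group means. The means of the CD3 chains lay between 11.64 and 12.01 after transfer, while erythroid means were 8.06 to 9.79 at day 15, against 6.31 to 6.73 at day 5.

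After transfer, several of these genes held a narrow range. Over the 24 arrays Lat ran from 12.49 to 12.80 with an SD of 0.0723, and 0.211% of all genes had a smaller SD. Cd3e, the chain that pairs with both Cd3d and Cd3g, ran from 12.90 to 13.23 (SD 0.0890, 0.953% of genes smaller), and Cd3g from 12.49 to 12.83 (SD 0.0951, 1.66% smaller). These genes were thus among the steadiest measured. Cd247 ran from 10.50 to 10.99 (SD 0.116, 7.42% of genes smaller), and Cd4 from 12.72 to 13.17 (SD 0.131, 16.6% smaller). The median SD of all genes was 0.179. The highest gene value of an array was 14.04 to 14.24, so Cd3e and Cd4 read in the upper part of the scale, and whether this narrowed their range was not tested.

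Cd3d, Cd28 and Zap70 varied more than the median of all genes. Cd3d ran from 10.53 to 11.34 (SD 0.214), Cd28 from 11.59 to 12.36 (SD 0.220) and Zap70 from 11.22 to 12.24 (SD 0.240). The 8 groups held 84.9% of the variance of Cd28 and 78.7% of that of Zap70, and 50.3% of that of Cd3d and 27.2% of that of Lat, against a median of 52.1% over all genes. The 9969 genes above the median level, as all 8 members are, had a median SD of 0.222 and a median share between groups of 72.4%. Against these brighter genes Cd3d and Cd28 lay near the middle, with 46.9% and 49.2% having a smaller SD, and Zap70 somewhat above it, with 57.1%. These shares are not adjusted for the number of groups, and 8 groups on 24 arrays hold part of the variance even without group differences. Cd28 and Zap70 varied mainly between the groups. For Cd3d the SD within groups was 0.181, against 0.214 over all 24 arrays.

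**Figure D2:**
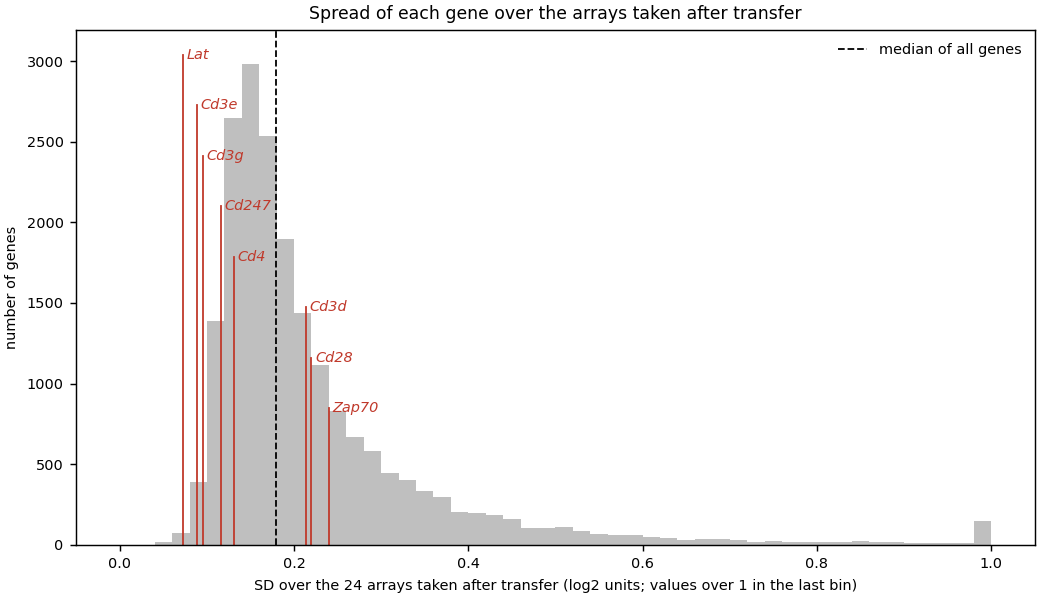
Number of genes (y axis) by SD over the 24 arrays taken after transfer (x axis, log2 units), with red lines at the 8 measured genes of the receptor complex and its signalling. Lat, Cd3e and Cd3g lay at SDs of 0.0723, 0.0890 and 0.0951, and Cd3d, Cd28 and Zap70 at 0.214, 0.220 and 0.240, above the median of 0.179.

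**Figure D3:**
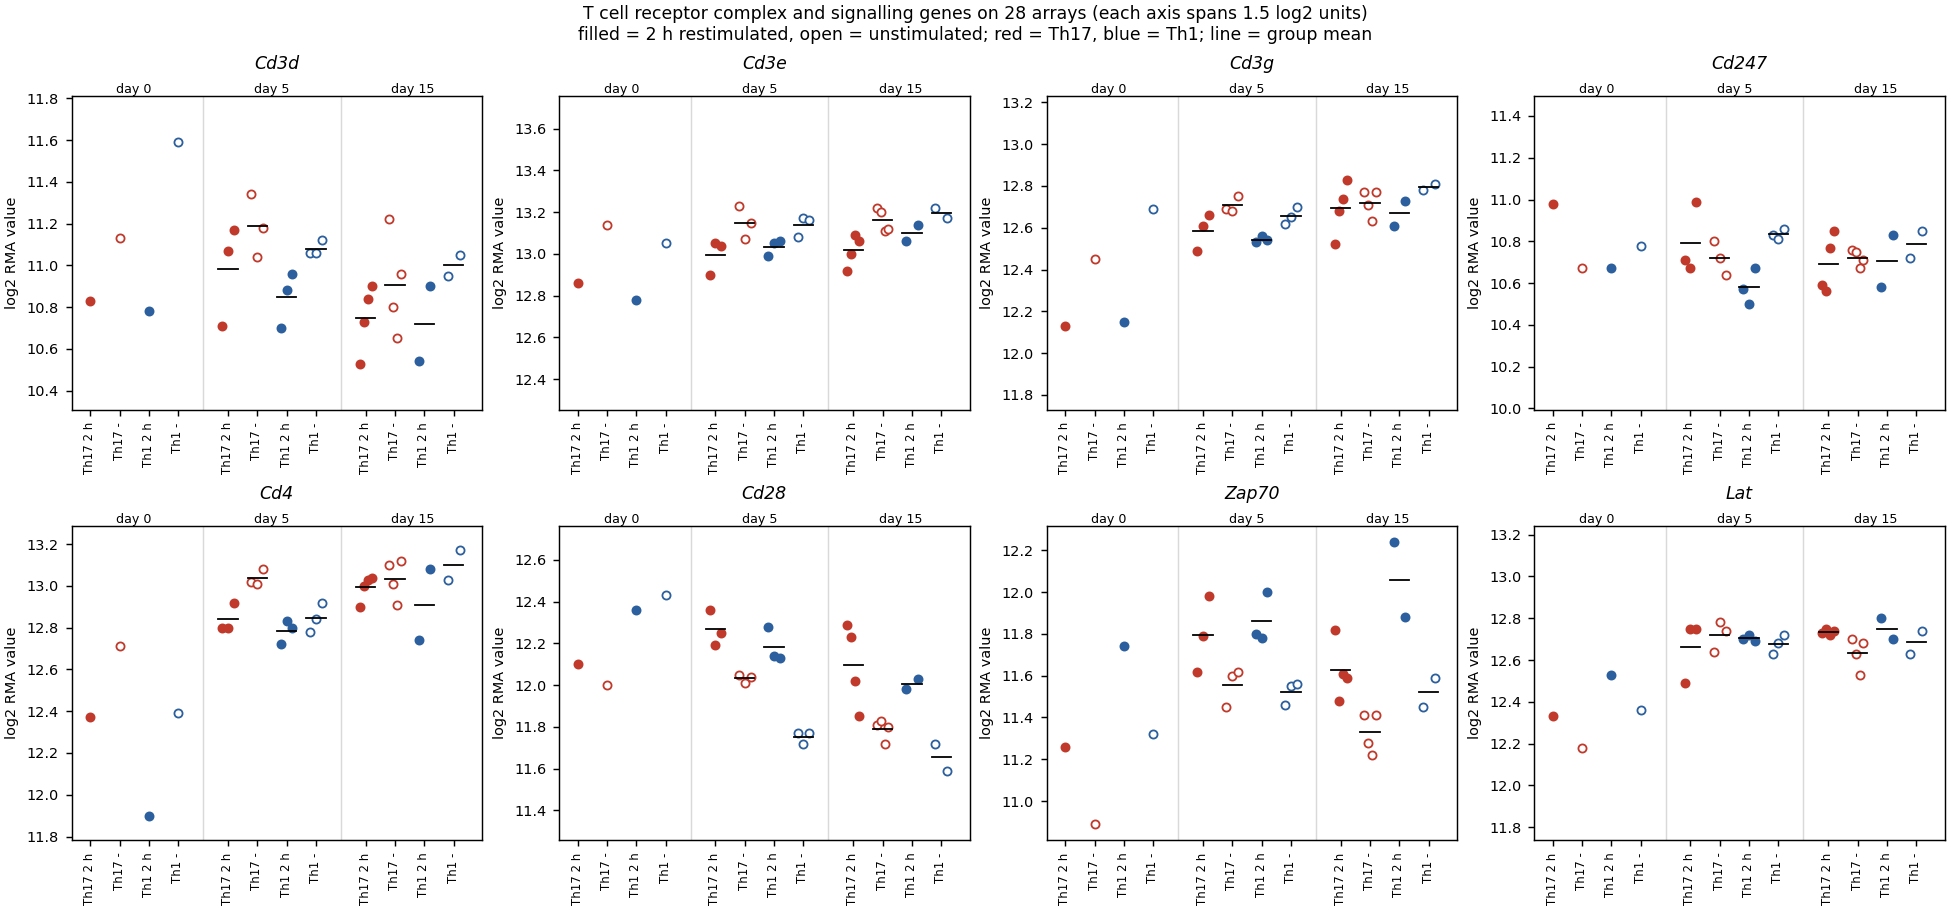
log2 RMA value (y axis, 1.5 units in every panel) of each gene on each of the 28 arrays, by type, day and restimulation (x axis); filled points are restimulated, open points unstimulated, red is Th17, blue is Th1 and lines are group means. After transfer, restimulated arrays lay between 11.85 and 12.36 for Cd28, against 11.59 to 12.05 for unstimulated arrays, while Lat, over all 24 arrays, ran from 12.49 to 12.80.

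Restimulated parts were compared with unstimulated ones to see how transcripts of the signalling components stood 2 h after signalling through CD3 and CD28. Cd28, the gene of one of the receptors engaged, was higher on every restimulated array than on every unstimulated array of its type and day. Such separation, in this direction, held in 14.3% of all genes in Th17 and 13.8% in Th1 cells of day 5. At day 15 it held in 7.1% in Th17 and 15.7% in Th1 cells. The share of genes separated in all of these comparisons together was not counted. In Th17 samples of day 5 Cd28 read 12.36, 12.19 and 12.25 when restimulated, against 12.05, 12.01 and 12.04 unstimulated. In Th1 samples of day 5 it read 12.28, 12.14 and 12.13 when restimulated, against 11.77, 11.72 and 11.77 unstimulated. The types lay apart at day 5 when unstimulated, and overlapped when restimulated. In Th17 samples of day 15 Cd28 read 12.29, 12.23, 12.02 and 11.85 when restimulated, against 11.81, 11.83, 11.72 and 11.80 unstimulated. In Th1 samples of day 15 it read 11.98 and 12.03 when restimulated, against 11.72 and 11.59 unstimulated. The restimulated Th17 array at 11.85 came closest to its unstimulated group.

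In size these differences in Cd28 were modest. The log2 difference was 0.43 ± 0.09 (SE) in Th1 cells of day 5 (limma adjusted p = 0.00383), and it was called in 7 of 7 other settings and in 6 of 6 fits that left out an array. It was 0.31 ± 0.08 in Th17 cells of day 15 (adjusted p = 0.0105), a call lost without restimulated replicate 1 (adjusted p = 0.0523) or replicate 2 (adjusted p = 0.0502). This call held in 4 of 7 other settings and in 6 of 8 fits that left out an array. The difference was 0.35 ± 0.12 in Th1 cells of day 15 (adjusted p = 0.0707) and 0.23 ± 0.09 in Th17 cells of day 5 (adjusted p = 0.135), which did not pass.

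Zap70 stood higher after restimulation in each type and day as well. In Th17 samples of day 5 it read 11.62, 11.79 and 11.98 when restimulated, against 11.45, 11.60 and 11.62 unstimulated. In Th1 samples of day 5 it read 11.80, 11.78 and 12.00 when restimulated, against 11.46, 11.55 and 11.56 unstimulated. The Th17 groups of day 5 met at 11.62, and the Th1 groups did not overlap. In Th17 samples of day 15 Zap70 read 11.82, 11.48, 11.61 and 11.59 when restimulated, against 11.41, 11.28, 11.22 and 11.41 unstimulated. In Th1 samples of day 15 it read 12.24 and 11.88 when restimulated, against 11.45 and 11.59 unstimulated. The value of 12.24 was the highest of the 24 arrays, and the groups of day 15 did not overlap in either type. With so few arrays that is common: at day 15 every restimulated array lay above every unstimulated one in 7.1% of all genes in Th17 and 15.7% in Th1 cells, and at day 5 in 13.8% in Th1 cells.

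The log2 difference of Zap70 was 0.54 ± 0.14 in Th1 cells of day 15 (limma adjusted p = 0.0178), 0.34 ± 0.11 in Th1 cells of day 5 (adjusted p = 0.0465) and 0.30 ± 0.10 in Th17 cells of day 15 (adjusted p = 0.0337). It was 0.24 ± 0.11 in Th17 cells of day 5 (adjusted p = 0.213), which did not pass. Single arrays bore on these calls. The Th1 call of day 15 held in 1 of 4 fits that left out an array, with an adjusted p of 0.222 without the restimulated array of 12.24 and of 0.158 and 0.0558 without unstimulated replicate 1 or 2, and was lost when only the compared groups were fitted (adjusted p = 0.287). The Th1 call of day 5 held in 0 of 6 fits that left out an array (highest adjusted p 0.219) and had an adjusted p of 0.0592 with the replicate number as a block. The Th17 call of day 15 held in 4 of 8 fits that left out an array (highest adjusted p 0.124, without restimulated replicate 1).

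Restimulation called 0 of 8 members in Th17 cells of day 5 with limma (3 at an unadjusted p under 0.05), where 8.07% of all genes were called. It called 2 of 8 in Th1 cells of day 5, where 13.0% of all genes were called (4.07% higher), 2 of 8 in Th17 cells of day 15, against 17.5% (6.49% higher), and 1 of 8 in Th1 cells of day 15, against 7.29% (2.65% higher). The split of all called genes turned on the scaling: 811 of 2597 were higher in Th1 cells of day 5 as deposited, 1182 of 2493 with cyclic loess and 607 of 3616 with arrays centred on their medians. In Th17 cells of day 15 these were 1293 of 3499, 2098 of 3769 and 1029 of 6893, and in Th1 cells of day 15, 529 of 1453, 796 of 1591 and 428 of 1848. With 8 members, counts of 0 to 2 do not set them apart from this background. In these comparisons, with all 8 groups fitted to the values as deposited and all genes kept, every call was of a higher level after restimulation. All of these calls were of Cd28 or Zap70. With arrays centred on their medians the calls differed. In Th17 cells of day 15 neither Cd28 (0.23, limma adjusted p = 0.0604) nor Zap70 (0.22, adjusted p = 0.0884) was then called and Cd3e was called lower (-0.23, adjusted p = 0.0207). In Th17 cells of day 5 Cd4 was called lower (-0.28, adjusted p = 0.0446), and in Th1 cells of day 5 Zap70 was not called (0.27, adjusted p = 0.117). In Th1 cells of day 5 the zeta chain gene Cd247 read 10.57, 10.50 and 10.67 when restimulated, against 10.83, 10.81 and 10.86 unstimulated. Its groups did not overlap, as in 24.8% of all genes in this direction, and the difference of -0.25 ± 0.10 did not pass (adjusted p = 0.0952), though it did with arrays centred on their medians (-0.32, adjusted p = 0.0180), with only the compared groups (adjusted p = 0.0263) and over the genes above the median (adjusted p = 0.0458).

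Averaged over the 4 combinations of type and day, a contrast added after the values were seen, restimulation called 5 of 8 members, where 32.0% of all genes were called, 10.8% higher and 21.1% lower. This average treats the parts of a sample as separate arrays. Cd28 rose by 0.33 ± 0.05 (1.26-fold, limma adjusted p = 1.15e-05) and Zap70 by 0.35 ± 0.06 (1.28-fold, adjusted p = 3.49e-05), both higher in 4 of 4 combinations. Both were called in 5 of 5 other settings and in 25 of 25 fits that left out arrays. Over 12 arrays each, Cd28 ran from 11.85 to 12.36 with a median of 12.16 when restimulated, and from 11.59 to 12.05 with a median of 11.79 unstimulated. Zap70 ran from 11.48 to 12.24 with a median of 11.79 when restimulated, and from 11.22 to 11.62 with a median of 11.46 unstimulated. Once the types and days were put together, the conditions thus overlapped for both genes.

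The CD3 chain genes stood on the other side of 0, by less. Cd3d fell by 0.22 ± 0.07 on average (limma adjusted p = 0.0197) and was lower in 4 of 4 combinations of type and day. Cd3e fell by 0.12 ± 0.04 (adjusted p = 0.0161), with every restimulated array below every unstimulated array in 4 of 4. With so few arrays such separation was common in a single comparison, and the share of genes with it in 4 of 4 was not counted. At day 5 it held, in this direction, in 24.8% of all genes in Th1 and 13.4% in Th17 cells. At day 15 it held in 25.3% in Th1 and 11% in Th17 cells. In the values as deposited, none of the 4 single differences passed for Cd3d or for Cd3e. Over 12 arrays each, Cd3d ran from 10.53 to 11.17 with a median of 10.86 when restimulated, and from 10.65 to 11.34 with a median of 11.05 unstimulated. Cd3e ran from 12.90 to 13.14 with a median of 13.05 when restimulated, and from 13.07 to 13.23 with a median of 13.16 unstimulated. Cd3d overlapped between conditions over most of its range, and Cd3e over a small part. Cd3g stood at -0.10 ± 0.04 (adjusted p = 0.0816) and Cd247 at -0.07 ± 0.05 (adjusted p = 0.325), and neither passed. With arrays centred on their medians both passed, at -0.17 (adjusted p = 0.00234) for Cd3g and -0.14 (adjusted p = 0.0192) for Cd247.

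The co-receptor gene Cd4 fell by 0.12 ± 0.05 on average (limma adjusted p = 0.0462). It ran from 12.72 to 13.08 with a median of 12.87 on restimulated arrays, and from 12.78 to 13.17 with a median of 13.02 on unstimulated arrays. That call held in 8 of 25 fits that left out arrays, and without restimulated Th1 replicate 1 of day 15 the adjusted p was 0.205. Lat stood at 0.03 ± 0.04 (adjusted p = 0.620), with a 95% interval of -0.05 to 0.12. Without both arrays of Th17 replicate 1 of day 5, which had the highest myeloid means, 2 of 8 members were called: Cd28 at 0.32 (adjusted p = 7.31e-05) and Zap70 at 0.36 (adjusted p = 5.60e-05). Cd3d then stood at -0.17 (adjusted p = 0.0798), Cd3e at -0.10 (adjusted p = 0.0670) and Cd4 at -0.12 (adjusted p = 0.0895). The call of Cd3d was also lost without restimulated Th1 replicate 1 (adjusted p = 0.0816) or unstimulated Th1 replicate 2 (adjusted p = 0.0527) of day 15. With the replicate number as a block, Cd3e stood at -0.12 with an adjusted p of 0.0501.

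Markers of other cells moved with restimulation too. In the average, 5 of 14 myeloid markers fell and 1 rose, 4 of 5 erythroid markers fell, 2 of 5 natural killer cell markers fell and 1 of 2 CD8 markers fell, and their part in the change of the receptor genes was not tested. In Th17 samples of day 15 the erythroid mean was 8.06 to 8.43 when restimulated, against 8.80 to 9.67 unstimulated. With it as a covariate neither Cd28 (0.24, limma adjusted p = 0.331) nor Zap70 (0.49, adjusted p = 0.0872) was called there. The median of an array was higher by 0.07 when restimulated. Among all genes 2158 were called higher and 4213 lower as deposited, 1491 and 6562 with arrays centred on their medians, and 3102 and 3599 with cyclic loess.

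**Figure D4:**
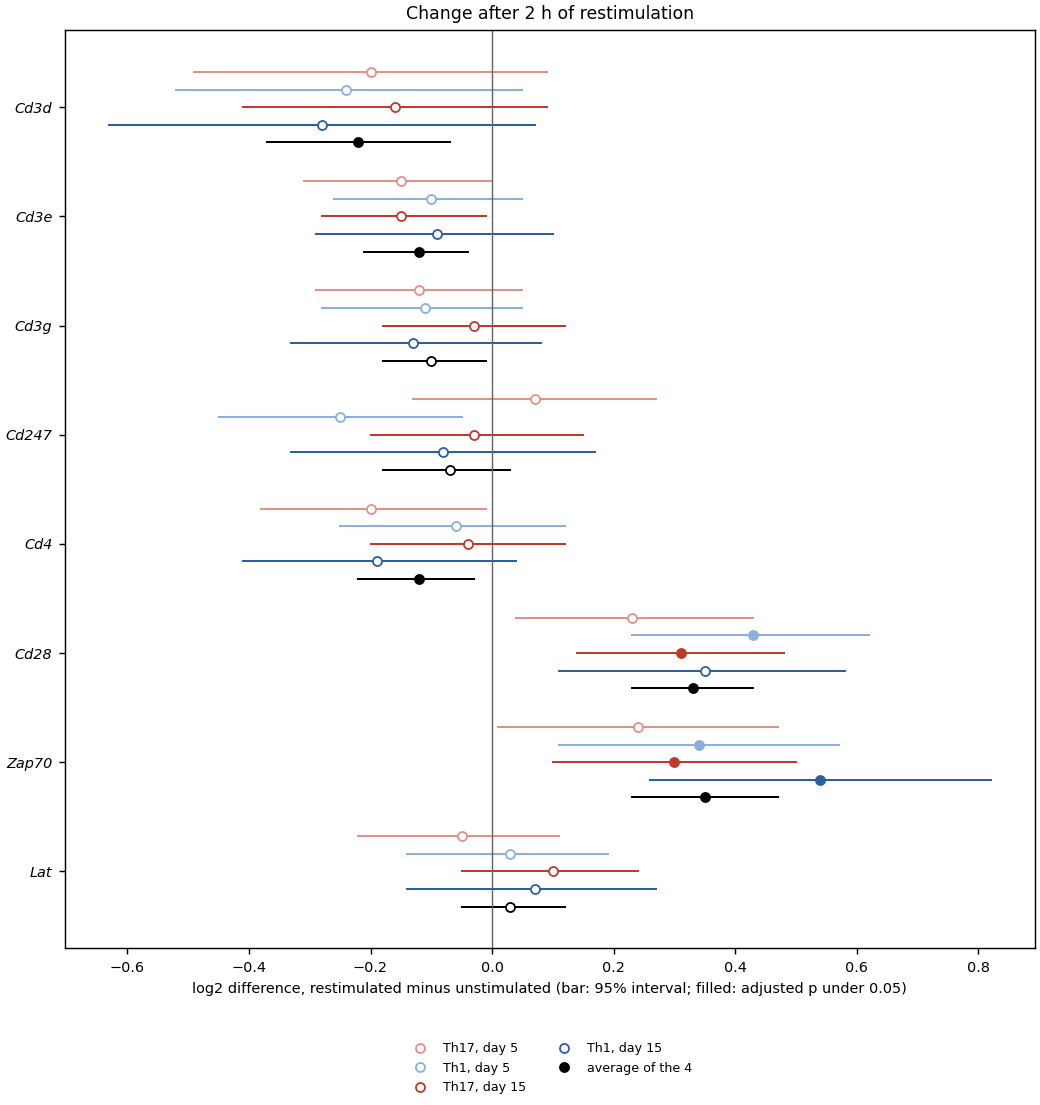
log2 difference, restimulated minus unstimulated (x axis), of the 8 measured genes (rows) in each of the 4 combinations of type and day and in their average (colours); bars are 95% intervals and filled points passed an adjusted p under 0.05. Cd28 and Zap70 were above 0 in 4 of 4 combinations, and Cd3d, Cd3e and Cd4 below 0 in 4 of 4.

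Other genes of the pathway changed in both directions after restimulation, in the same average, where 10.8% of all genes were called higher and 21.1% lower. Whether any list departs from these shares was not tested. Of 18 adaptor genes 4 rose and 7 fell, with a median log2 difference of -0.04, against -0.02 for all genes and -0.09 for the 8 members. Sh2d2a, which encodes the adaptor TSAd, rose by 0.49 ± 0.06 (limma adjusted p = 1.69e-06) and Sh2b3, which encodes the adaptor Lnk, by 0.49 ± 0.09 (adjusted p = 8.32e-05). The average for Sh2b3 covers unlike values, as its differences between days, given below, show. Its restimulation difference stood higher at day 5 than at day 15 in both types. For day with restimulation, 0 of 18 adaptors were called in either type. Trat1, which encodes the receptor-associated adaptor TRIM, fell by 0.53 ± 0.07 (adjusted p = 3.90e-06), and Pag1, whose product holds the inhibitory kinase Csk at the membrane, by 0.36 ± 0.08 (adjusted p = 0.000735). Of 14 other kinases and enzymes 2 rose and 4 fell, with a median of -0.03. Those that rose were Bcl10 (0.34 ± 0.07) and Malt1 (0.27 ± 0.06), partners in the complex that leads to NF-kappaB. Among those that fell were Map4k1 (-0.37 ± 0.07), a kinase that dampens the signal, and Prkcq (-0.24 ± 0.06), which encodes protein kinase C theta.

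Of 17 inhibitors of proximal signalling 5 rose and 6 fell in this average, with a median of -0.08, where 10.8% of all genes rose and 21.1% fell. Ptpn22, a phosphatase that acts on Lck and ZAP-70, rose by 0.49 ± 0.08 (limma adjusted p = 3.70e-05), and Cblb, a ubiquitin ligase, by 0.39 ± 0.08 (adjusted p = 0.000324). Sla2, an adaptor that dampens receptor signalling, fell by 0.36 ± 0.06 (adjusted p = 2.47e-05). Of 14 other costimulatory and co-receptor genes 4 rose and 5 fell, with a median of -0.08. Tnfrsf4, which encodes OX40, rose by 0.90 ± 0.10 (adjusted p = 5.34e-07), and Ctla4, the inhibitory relative of Cd28, by 0.82 ± 0.08 (adjusted p = 2.29e-08). Cd81, a membrane scaffold, fell by 0.47 ± 0.08 (adjusted p = 3.93e-05) and Cd226, an adhesion and costimulatory receptor, by 0.47 ± 0.08 (adjusted p = 5.53e-05).

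Th17 cells were next set against Th1 cells to see whether the types differ in these components, and few differences passed. Zap70 was lower in restimulated Th17 cells of day 15, with 11.82, 11.48, 11.61 and 11.59, against 12.24 and 11.88 in Th1 cells, so that the groups did not overlap. The log2 difference was -0.43 ± 0.12 (limma adjusted p = 0.0255), and this was 1 of 8 members called, where 6.43% of all genes were called, 2.98% lower. It was -0.25 (adjusted p = 0.408) without the Th1 array of 12.24 and -0.41 (adjusted p = 0.0543) with the replicate number as a block. The call was also lost without Th17 replicate 2 (adjusted p = 0.0802), 3 (adjusted p = 0.0538) or 4 (adjusted p = 0.0547). The erythroid mean was 8.06 to 8.43 in these Th17 samples, against 8.94 to 9.34 in the Th1 samples, and with it as a covariate the difference was -0.27 (adjusted p = 0.345). Without restimulation at day 15, Zap70 read 11.41, 11.28, 11.22 and 11.41 in Th17 cells, against 11.45 and 11.59 in Th1 cells (-0.19 ± 0.12, adjusted p = 0.492).

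In the other comparisons of the types, limma called 0 of 8 members. These were restimulated cells of day 5 (1 at an unadjusted p under 0.05, 3.98% of all genes called), unstimulated cells of day 5 (2 unadjusted, 3.63% called) and unstimulated cells of day 15 (0 unadjusted, 4.15% called). The 95% intervals of the 8 members in these comparisons lay between -0.43 and 0.48. Cd28 in unstimulated cells of day 5, whose arrays are given above, had the largest difference there, at 0.28 ± 0.09 (adjusted p = 0.123), and it passed when only the compared groups were fitted (adjusted p = 0.0416). Cd4 in the same comparison read 13.02, 13.01 and 13.08 in Th17 cells, against 12.78, 12.84 and 12.92 in Th1 cells, a difference of 0.19 ± 0.09 (adjusted p = 0.351). Both genes had every Th17 array above every Th1 array, as did 9.7% of all genes, and neither difference passed. Cd247 in restimulated cells of day 5 read 10.71, 10.67 and 10.99 in Th17 cells, against 10.57, 10.50 and 10.67 in Th1 cells, a difference of 0.21 ± 0.10 (adjusted p = 0.397).

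Averaged over both days and conditions, again added after the values were seen, Th17 cells had higher Cd28 by 0.15 ± 0.05 (limma adjusted p = 0.0466), higher in 4 of 4 combinations of day and condition, and this was the 1 member called of 8, against 11.1% of all genes, 6.05% higher. Cd28 ran from 11.72 to 12.36 with a median of 12.03 on 14 Th17 arrays, and from 11.59 to 12.28 with a median of 11.88 on 10 Th1 arrays. The types thus overlapped over most of their range. The call held in 5 of 25 fits that left out arrays, with the highest adjusted p, 0.143, without unstimulated Th1 replicate 2 of day 15, and 0.121 without both arrays of Th17 replicate 1 of day 5. It was lost with arrays centred on their medians (adjusted p = 0.113). Both parts of a divided sample count as separate arrays in this average. Its p-values may therefore be too small and its intervals too narrow, here and in the next paragraphs on the types. Zap70 stood at -0.16 ± 0.06 (adjusted p = 0.0697), which passed with the replicate number as a block (-0.15, adjusted p = 0.0384). In the same average 8 of 14 myeloid markers were higher and 1 lower in Th17 samples and 4 of 5 natural killer cell markers lower, and their part in these values was not tested.

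For the CD3 chains no difference between the types was detectable with these arrays. The average difference, Th17 minus Th1, was 0.05 for Cd3d (95% interval -0.10 to 0.19), -0.03 for Cd3e (-0.12 to 0.05), 0.01 for Cd3g (-0.07 to 0.10) and 0.01 for Cd247 (-0.10 to 0.11). Lat stood at -0.02 (-0.10 to 0.07) and Cd4 at 0.07 (-0.03 to 0.16).

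Among the other pathway genes the types differed in both directions in this average, where 1207 of all 19938 genes were called higher and 1015 lower. Whether any list departs from this background was not tested. In Th17 cells 6 of 18 adaptors were higher and 4 lower, and the list's median was 0.04, against -0.01 for all genes. Trat1 stood at 1.67 ± 0.07 (limma adjusted p = 3.15e-14) and Cd2ap, whose product links CD2 to the cytoskeleton, at 0.74 ± 0.09 (adjusted p = 1.16e-06). Trat1 was higher in Th17 cells by 1.95 in restimulated and 1.81 in unstimulated cells of day 5, and by 1.75 in restimulated and 1.18 in unstimulated cells of day 15. At day 0, with 1 array a group, the order was the opposite: Trat1 read 5.57 in restimulated and 5.85 in unstimulated Th17 cells, against 8.36 in restimulated and 9.04 in unstimulated Th1 cells. Of 14 other kinases and enzymes 2 were higher and 1 lower. Txk (0.71 ± 0.07, adjusted p = 2.34e-08) and Tec (0.29 ± 0.07, adjusted p = 0.00622), both of the Tec kinase family, were higher, and Fyn, the Src family kinase that works beside Lck, was lower (-0.26 ± 0.04, adjusted p = 0.000132). Of 17 inhibitors 3 were higher and 1 lower, and the lower one was Sh2d1a (-0.37 ± 0.07, adjusted p = 0.000788), which encodes SAP, an adaptor of the SLAM receptors that can also promote signalling. Of 14 other costimulatory and co-receptor genes 2 were higher, Cd96 (0.46 ± 0.06) and Slamf6 (0.34 ± 0.07). The 2 lower ones were Cd226 (-0.44 ± 0.08) and Tnfrsf4 (-0.42 ± 0.10).

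Day 15 was set against day 5 to see how the components stood with time in the host, and limma called 0 of 8 members in each of the 4 comparisons. In restimulated Th17 cells 13.5% of all genes were called (0 members at an unadjusted p under 0.05), in unstimulated Th17 cells 9.64% (3 members unadjusted), in restimulated Th1 cells 15.7% (0 unadjusted) and in unstimulated Th1 cells 16.1% (1 unadjusted). Cd4 in unstimulated Th1 cells read 13.03 and 13.17 at day 15, against 12.78, 12.84 and 12.92 at day 5, a difference of 0.26 ± 0.10 (adjusted p = 0.0887). It passed over the 9969 genes above the median (adjusted p = 0.0421) and with cyclic loess (0.33, adjusted p = 0.00328). Cd28 in unstimulated Th17 cells read 11.81, 11.83, 11.72 and 11.80 at day 15, against 12.05, 12.01 and 12.04 at day 5, a difference of -0.24 ± 0.09 (adjusted p = 0.0846). Zap70 in the same cells read 11.41, 11.28, 11.22 and 11.41 at day 15, against 11.45, 11.60 and 11.62 at day 5, a difference of -0.23 ± 0.10 (adjusted p = 0.166). In all of these the days did not overlap, which was common: in unstimulated Th1 cells every array of day 15 lay above every array of day 5 in 24.3% of all genes, and in unstimulated Th17 cells below in 11.6%.

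In the average over types and conditions, added after the values were seen, 2 of 8 members were called, where 32.8% of all genes were, 14.9% higher and 17.9% lower. Cd4 rose by 0.13 ± 0.05 at day 15 (limma adjusted p = 0.0270), with 12.74 to 13.17 and a median of 13.03 at day 15, against 12.72 to 13.08 and a median of 12.84 at day 5. Cd28 fell by 0.17 ± 0.05 (adjusted p = 0.00717), with 11.59 to 12.29 and a median of 11.84 at day 15, against 11.72 to 12.36 and a median of 12.09 at day 5. Both calls turned on the scaling. Cd4 stood at 0.06 with arrays centred on their medians (adjusted p = 0.299) and at 0.13 with the replicate number as a block (adjusted p = 0.0625), and without restimulated Th1 replicate 2 of day 15 its adjusted p was 0.136. Cd28 stood at -0.08 with cyclic loess (adjusted p = 0.225) and was called in 25 of 25 fits that left out arrays. Most of these fits left out a single array and kept the other part of its sample. Array medians were higher at day 15 by 0.07 on average, by 0.11 in restimulated and 0.13 in unstimulated Th1 cells. Among all genes 2975 were called higher and 3565 lower as deposited, 1949 and 5620 with arrays centred, and 3763 and 3369 with cyclic loess. In the same average 5 of 5 erythroid markers were higher at day 15, and their part in these values was not tested. The average between days, too, counts both parts of a sample as separate arrays, so its p-values may be too small.

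Cd3d stood at -0.18 ± 0.07 at day 15 in this average (limma adjusted p = 0.0564), lower in 4 of 4 comparisons, and Cd3g at 0.09 ± 0.04 (adjusted p = 0.0937), higher in 4 of 4. Chains of a single complex thus had values on opposite sides of 0, and neither passed. Cd3d passed with arrays centred on their medians (-0.25, adjusted p = 0.0105) and with the replicate number as a block (-0.18, adjusted p = 0.0255), and Cd3g with cyclic loess (0.18, adjusted p = 7.97e-05). Over the genes above the median both passed with limma, Cd3d at -0.18 (adjusted p = 0.0364) and Cd3g at 0.09 (adjusted p = 0.0452). Cd3e (0.04, adjusted p = 0.507), Cd247 (-0.01, adjusted p = 0.949), Zap70 (-0.05, adjusted p = 0.557) and Lat (0.01, adjusted p = 0.879) did not pass. With cyclic loess Cd3e (0.13, adjusted p = 0.00632) and Lat (0.10, adjusted p = 0.0228) did.

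Among the other pathway genes, 9 of 18 adaptors were higher and 2 lower at day 15, with a median of 0.18, against 0.01 for all genes. In this average 14.9% of all genes were called higher and 17.9% lower, and whether any list departs from these shares was not tested. Pag1 stood at 0.40 ± 0.08 (limma adjusted p = 0.000232) and Sh2b3 at 0.48 ± 0.09 (adjusted p = 9.96e-05). The average for Sh2b3 covers unlike values: -0.08 in restimulated and 0.51 in unstimulated Th17 cells, and 0.44 in restimulated and 1.04 in unstimulated Th1 cells. Of 14 other kinases and enzymes 5 were higher and 2 lower, with Plcg1, the phospholipase recruited by LAT, at 0.33 ± 0.05 (adjusted p = 4.01e-06). Of 17 inhibitors 2 were higher and 2 lower, with Sh2d1a at -0.59 ± 0.07 (adjusted p = 6.03e-07). Of 14 other costimulatory and co-receptor genes 4 were higher, among them Cd226 (0.70 ± 0.08). In the same list 5 were lower, among them the inhibitory Ctla4 (-0.74 ± 0.08).

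**Figure D5:**
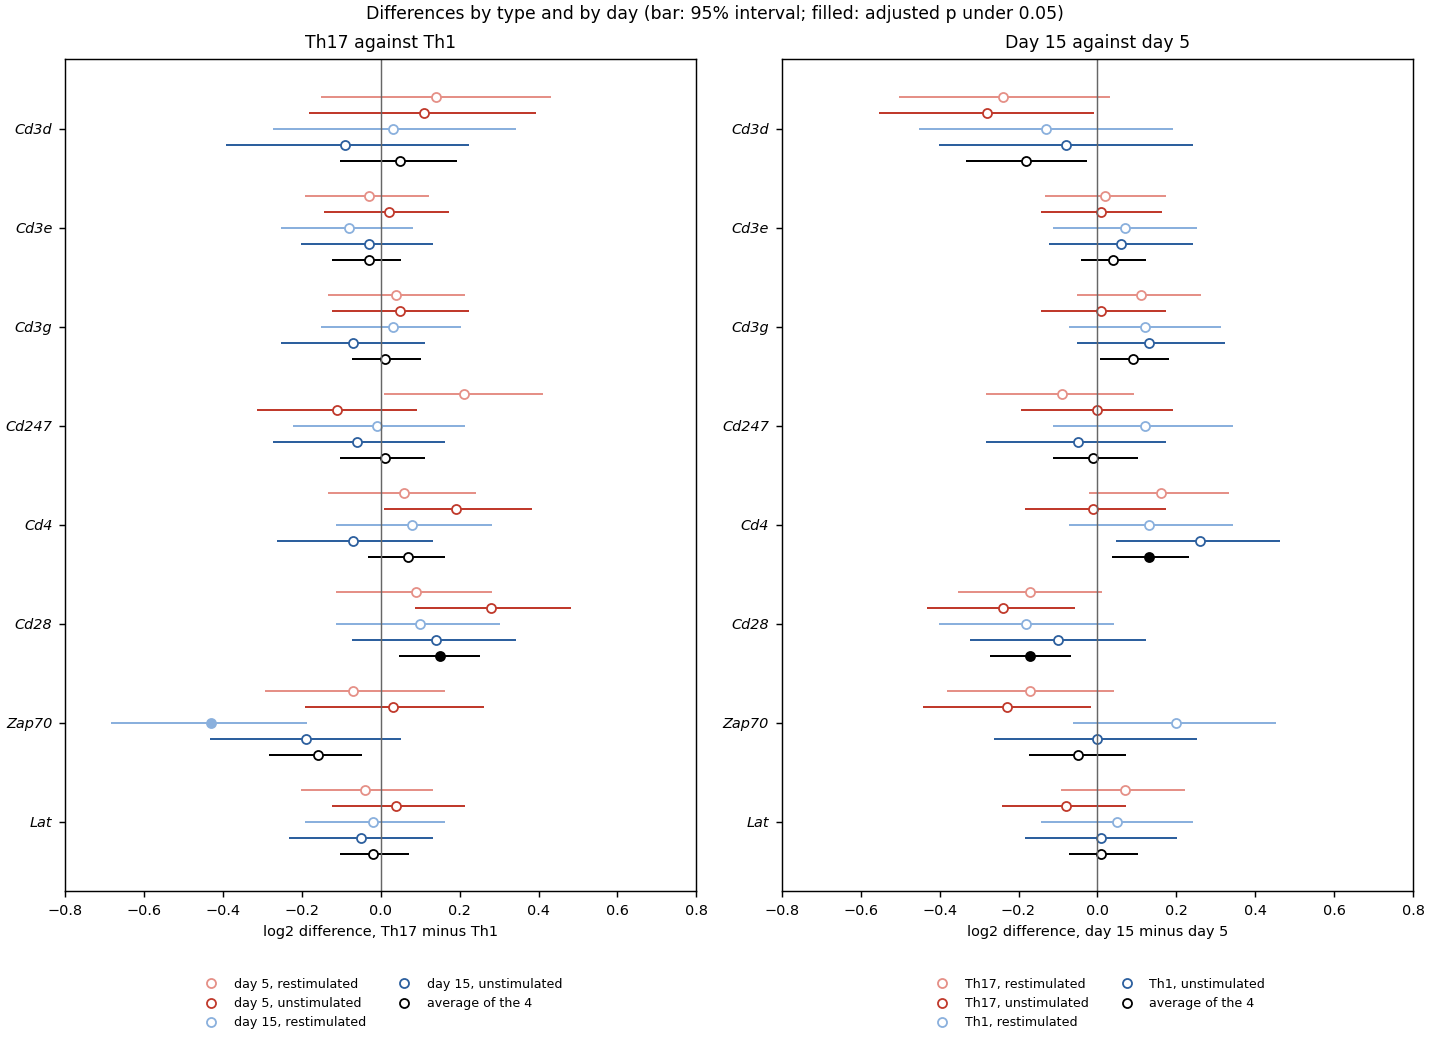
log2 differences of the 8 measured genes (rows), Th17 minus Th1 on the left and day 15 minus day 5 on the right (x axes), in the 4 comparisons of each kind and their average (colours); bars are 95% intervals and filled points passed an adjusted p under 0.05. Zap70 at -0.43 in restimulated cells of day 15 was the single difference between types that passed in the 4 comparisons, and 0 of 8 genes passed between days in each of the 4.

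Whether changes themselves differed between types or days was tested with interactions, and limma called 0 of 8 members in each of the 6. For type with restimulation, 0.0201% of all genes were called at day 5 (1 member at an unadjusted p under 0.05) and 0.00% at day 15 (0 members). For type with day, 0.943% were called in restimulated cells (1 member unadjusted) and 1.14% in unstimulated cells (0 members). For day with restimulation, 1.17% were called in Th17 cells (0 members) and 0.0251% in Th1 cells (0 members). The members at an unadjusted p under 0.05 were Cd247 for type with restimulation at day 5 (0.32 ± 0.14, adjusted p = 1.00) and Zap70 for type with day in restimulated cells (-0.37 ± 0.16, adjusted p = 0.394). For Cd28 at day 5 the difference between the types in the response to restimulation was -0.19, with a 95% interval of -0.47 to 0.08, so the types are not shown to differ in it.

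At day 0, before transfer, each group was 1 array, so values are given with no test. Zap70 read 11.26 in restimulated and 10.89 in unstimulated Th17 cells, and 11.74 in restimulated and 11.32 in unstimulated Th1 cells. It was higher in the restimulated part in both types, and lower in Th17 than in Th1 cells in both conditions. Cd28 read 12.10 in restimulated and 12.00 in unstimulated Th17 cells, and 12.36 in restimulated and 12.43 in unstimulated Th1 cells. Unlike after transfer, restimulated and unstimulated Cd28 thus lay close together, and the unstimulated Th1 value was above every array taken after transfer. Cd3d read 10.83 in restimulated and 11.13 in unstimulated Th17 cells, and 10.78 in restimulated and 11.59 in unstimulated Th1 cells. Cd3e read 12.86 in restimulated and 13.14 in unstimulated Th17 cells, and 12.78 in restimulated and 13.05 in unstimulated Th1 cells. Cd3g, at 12.13 in restimulated and 12.45 in unstimulated Th17 cells and 12.15 in restimulated and 12.69 in unstimulated Th1 cells, had the same order, so that all 3 CD3 genes were lower in the restimulated part.

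Cd4 read 12.37 in restimulated and 12.71 in unstimulated Th17 cells of day 0, and 11.90 in restimulated and 12.39 in unstimulated Th1 cells. All 4 values lay below the lowest after transfer, 12.72. Lat read 12.33 in restimulated and 12.18 in unstimulated Th17 cells, and 12.53 in restimulated and 12.36 in unstimulated Th1 cells. Cd247 read 10.98 in restimulated and 10.67 in unstimulated Th17 cells, and 10.67 in restimulated and 10.78 in unstimulated Th1 cells, an order that differed between the types. For scale, restimulation differed from no stimulation by over 0.5 upward in 7.01% and downward in 6.99% of all genes in Th17 cells, and in 10.9% and 15.7% in Th1 cells. The myeloid mean was 9.23 in restimulated and 9.72 in unstimulated Th17 cells of day 0, and 7.14 in restimulated and 7.36 in unstimulated Th1 cells. The mean of 8 dendritic cell and class II genes was 8.20 to 8.76 at day 0 and 6.87 to 7.53 after transfer. The part of such cells in these values was not tested.

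How the members varied together is described by Pearson correlations over the 24 arrays taken after transfer, which share the groups of the design and the normalisation. Cd3e went with Cd3g (r = 0.70) and Cd3d (0.62), and Cd3g with Cd4 (0.86). Cd28 went with Zap70 (0.53) and against Cd3e (-0.75) and Cd3g (-0.66), and Zap70 went with Lat (0.55). Of all other genes, the one most like Zap70 was Lcp2 (r = 0.92), which encodes SLP-76, the adaptor that ZAP-70 phosphorylates beside LAT. The gene most like Cd28 was Milr1 (0.89), that for Cd4 was Ifi203 (0.93), for Cd3g Itpr3os (0.91), for Cd3d Glmp (0.90), for Cd3e Cpox (0.87), for Cd247 Nagk (0.78) and for Lat Dnajb9 (0.74). The mean of the members went most with Ifitm3 (0.82), Gps2 (0.80) and Msmp (0.78). All of these genes were picked for the highest correlation among all other genes, which by itself favours high values. Shared function was not tested.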

How the data were processed

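Gene expression was measured on 28 single-colour Affymetrix arrays. The authors deposited log2 values made with Affymetrix Expression Console and RMA, per the submitters' processing notes, which correct background, equalise the arrays' distributions and summarise probes, and so can hide a shift shared by all genes. Array medians were 6.77 to 7.09, and no value was scaled further. Of 35556 probe sets 21789 carried 1 gene symbol in the platform annotation, 1621 several and 12146 none. For 999 genes with several probe sets, the one with the highest mean over the 28 arrays stood for the gene, leaving 19938 genes.

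Linear models were fitted with limma 3.58.1 (R 4.3.3) to the 24 arrays taken after transfer, with 8 groups of type, day and restimulation, and p-values were adjusted by Benjamini-Hochberg over all genes. The model was tested on simulated data, where in the 12 pairwise comparisons 93 to 99% of 100 genes with a log2 change of 1 were recovered among 19938. In the interactions 80 to 88% were recovered. Smaller changes, and parts of a sample that deviate together, were not simulated. The recovery thus does not show how often differences as small as those of the members would be called. Day 0 had 1 array a group and no test. The alternatives were a fit of only the compared groups, the 9969 genes above the median, cyclic loess, median centring, the mean of a gene's probe sets, the replicate number as a block, a marker mean as a covariate and leaving out each array.

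The members and the gene lists were chosen with earlier results of these data known. All measured members are described, and up to 4 called genes a list and comparison, by size of change, with the defining genes of other cell types. The lists share genes: Cd5 is in the inhibitor and Thy1, Cd2 and Cd6 in the costimulatory and co-receptor list, and all are T cell markers. Same-numbered samples deviated together in restimulated Th17 against Th1 cells of day 5 (correlations of 0.22 to 0.48) and in restimulated against unstimulated cells of day 5 (0.38 to 0.47 in Th17, 0.16 to 0.22 in Th1), and not in every pair, or in fewer than 3 pairs, elsewhere.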

Additional observations from a re-analysis of the deposited data

How the results depend on the processing

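Over 168 differences of single members and 2888 alternative fits, 2765 stayed on the same side of the threshold, 83 lost a call, 40 gained one and 0 called differences changed sign, while 159 of the 2765, all of differences not called, had the other sign. The number of members called changed as follows. Fitting only the compared groups gave 1 between types in unstimulated cells of day 5, 3 for restimulation of Th1 cells at day 5, and 0 between types in restimulated cells of day 15 and for restimulation at day 15 in either type. The replicate block gave 0 between types in restimulated cells of day 15, 1 for restimulation of Th1 cells at day 5, 4 for the average of restimulation and 2 for that between types, and changed no other count of members. The myeloid covariate gave 1 for restimulation of Th1 cells at day 5, and the erythroid covariate 0 between types in restimulated cells of day 15 and for restimulation of Th17 cells at day 15. Median centring gave 1 for restimulation of Th17 cells at either day, 7 for the average of restimulation and 0 for that between types. Genes above the median gave 3 and 2 for restimulation of Th1 cells at day 5 and day 15, 1 between days in unstimulated Th1 cells, and 6, 2 and 4 for the averages of restimulation, type and day. Cyclic loess gave 2 for restimulation of Th1 cells at day 15, 2 and 1 between days in unstimulated and restimulated Th1 cells, 2 in restimulated Th17 cells and 4 for the average between days. Leaving out arrays gave 0 to 1 between types in restimulated cells of day 15, 1 to 1 for restimulation of Th1 cells at day 5, 0 to 2 at day 15 in either type, and 2 to 6, 0 to 1 and 1 to 3 for the averages of restimulation, type and day. Counts over all genes moved more. With the myeloid covariate 281 in place of 724 genes were called between types in unstimulated and 410 in place of 793 in restimulated cells of day 5, and 918 in place of 1609 for restimulation of Th17 cells at day 5. Fitting only the compared groups gave 394 in place of 1282 between types in restimulated cells of day 15, and for restimulation 4720 in place of 2597 (Th1, day 5), 42 in place of 1453 (Th1, day 15) and 2204 in place of 3499 (Th17, day 15). Between days it gave 5059 in place of 3201 (unstimulated Th1), 1540 in place of 3132 (restimulated Th1) and 1147 in place of 1923 (unstimulated Th17). It gave 1 in place of 0 for type with restimulation at day 15, 374 in place of 227 and 70 in place of 188 for type with day in unstimulated and restimulated cells, and 1 in place of 5 for day with restimulation in Th1 cells. The erythroid covariate gave 489 for restimulation of Th1 cells at day 15 and 6 for type with restimulation at day 15. Median centring gave 6893 for restimulation of Th17 cells at day 15, 1 for type with restimulation at day 15, 349 for type with day in unstimulated cells and 3 for day with restimulation in Th1 cells. Cyclic loess gave 426 and 334 for type with day in unstimulated and restimulated cells, genes above the median 341 in unstimulated cells and 1 for type with restimulation at day 5, and the replicate block 1 for type with restimulation at day 15 and 0 for day with restimulation in Th1 cells. Leaving out arrays, counts ran between types from 444 to 703 and 488 to 899 in unstimulated and restimulated cells of day 5 and from 283 to 828 and 619 to 2391 at day 15. For restimulation they ran from 1350 to 2164 (Th1) and 295 to 1485 (Th17, lowest without both replicate 1 arrays) at day 5 and from 343 to 2647 (Th1) at day 15. Between days they ran from 1656 to 2752 in unstimulated Th1 cells and from 1082 to 2302 and 1570 to 2867 in unstimulated and restimulated Th17 cells. For the interactions they ran from 2 to 9 and 0 to 272 (type with restimulation, day 5 and day 15), 34 to 357 and 83 to 557 (type with day, unstimulated and restimulated) and 0 to 89 and 92 to 350 (day with restimulation, Th1 and Th17). The causes were not tested, beyond the smaller number of samples or genes in fits that left some out. The averages and the fit without both replicate 1 arrays were chosen after seeing the data. With 2 Th1 arrays a condition at day 15, leaving out 1 assumes that the other varies like the remaining groups. The array signal gives no count of RNA molecules, and most member differences were under 0.5 log2 units.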
